A study of Mus musculus with 4 samples.

Results

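The genes described here are 10 genes of the endothelium, the cell layer that lines blood vessels and the chambers of the heart, in RNA-seq of mouse hearts. *Pecam1*, *Cdh5*, *Tek*, *Tie1*, *Kdr*, *Flt1*, *Emcn*, *Egfl7* and *Vwf* were taken as constitutive genes of endothelial cells, and *Apold1* as an inducible gene. They are 10 of the 24454 genes in the count table, and all 10 were among the 14266 genes with enough counts to be tested. The genes were chosen by name, with their measured fold changes between *miR-128*OE and Ctrl hearts in these same libraries in view. Their values in that contrast are therefore given as a description, and no support is drawn from where they fell in its test.

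Hearts were compared at postnatal day 7 (P7), with 2 libraries per group. Ctrl hearts came from *miR-128*TetRE mice, which carry a *miR-128* transgene behind a tetracycline-responsive element but no activator for it. The *miR-128*OE hearts came from *α-MHC*-tTA; *miR-128*TetRE mice, in which the transactivator tTA switches on the transgene once doxycycline is withdrawn, a system known as Tet-off. The study made this comparison to look for targets of *miR-128* that act in the cell cycle. The *α-MHC* promoter is active in cardiomyocytes (CMs), so the transgene was not directed to endothelial cells. Ctrl mice lack *α-MHC*-tTA, and the transactivator and the transgene product therefore differ together between the groups. RNA was taken from heart tissue, in which endothelial RNA is mixed with that of every other cell, and fewer endothelial cells and less RNA per endothelial cell cannot be told apart. The labels do not say whether the libraries of a group came from separate mice or from pools, so the spread between them may be technical. The 2 Ctrl libraries, WH7 and WH8, held 12385863 and 8096870 counts, and the others, WH9 (12440553 counts) and WH10 (14359838 counts), came from *miR-128*OE hearts. A detection floor of 3 counts corresponded to between 0.214 and 0.360 CPM (counts scaled to a library of fixed size), a floor that covers counting error only. All CPM values were scaled by TMM (trimmed mean of M values), which sets the libraries on a common scale through the bulk of their genes.

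Endothelial cells hold together through VE-cadherin and PECAM1 at their junctions. They are kept alive and made to sprout by VEGF, which signals through the receptor tyrosine kinases encoded by *Kdr* and *Flt1*, and they are stabilized by angiopoietins, which signal through the TIE2 receptor. In the growing heart, a dense capillary bed spreads among the CMs after birth, fed by VEGF that CMs themselves release. *Apold1*, also known as vascular early response gene, encodes a membrane-associated protein that endothelial cells make quickly after a stimulus, in the manner of an immediate-early gene such as *Fos*. Immediate-early genes are transcribed from pre-existing factors without new protein synthesis, and their RNAs are short-lived.

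The sequence of *miR-128-3p*, the microRNA of the transgene, is printed from RefSeq. Its seed, bases 2 to 8 from the 5′ end, is in capitals, because the seed defines which 3′UTRs can pair with the microRNA. A 7mer-m8 site is the complement of the seed, CACTGTG, and a 7mer-A1 site, ACTGTGA, pairs with bases 2 to 7 and is followed by an A.

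miR-128-3p: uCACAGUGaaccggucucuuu

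When the longest 3′UTR of every gene was searched (GENCODE M21, GRCm38, the same assembly as the mm10 build of the counts), 4 of the 10 members held at least 1 such site, namely *Cdh5*, *Tie1*, *Emcn* and *Apold1*. The share was 31.0% among the 13494 tested genes with a 3′UTR. With shorter 6mer matches included, 6 of 10 members held a match, against 47.1% of the tested genes. The 6 windows are printed 5′ to 3′ on the gene's strand, each ending with the site in capitals, so that they can be read against the fold changes that follow. They lie at chr8:104143624-104143645 (+) for *Cdh5*, chr4:118479216-118479237 (−) for *Tie1*, chr6:134986012-134986033 (+) for *Apold1*, and chr3:137430793-137430814, chr3:137430946-137430967 and chr3:137431729-137431750 (+) for *Emcn*.

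Cdh5 7mer-A1: gtcgaatttgaagcaACTGTGA

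Tie1 7mer-A1: ttatactctagagtgACTGTGA

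Apold1 7mer-m8: tttttttttttttgaCACTGTG

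Emcn 7mer-A1: actttgctaggaggaACTGTGA

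Emcn 7mer-m8: gtatttattgtttccCACTGTG

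Emcn 7mer-A1, the most distal: tgttgattttctttaACTGTGA

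The most distal *Emcn* window lies beyond the end of the gene in RefSeq and inside the longer GENCODE 3′UTR. The *Tie1* window lies farther from the gene's 3′ end, chr4:118471191, than the 2240 bases of the searched 3′UTR. Which *Tie1* transcripts carry this match was not examined. A match is a stretch of letters and not a measured binding site.

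The promoter of *Apold1* is shown because this gene had the largest fold change of the 10 and is the inducible member. The window is chr6:134981751-134982050 on the + strand (RefSeq, GRCm38.p6), which runs from 250 bases before the start site to 50 bases after it, with motif matches in capitals.

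Apold1 promoter: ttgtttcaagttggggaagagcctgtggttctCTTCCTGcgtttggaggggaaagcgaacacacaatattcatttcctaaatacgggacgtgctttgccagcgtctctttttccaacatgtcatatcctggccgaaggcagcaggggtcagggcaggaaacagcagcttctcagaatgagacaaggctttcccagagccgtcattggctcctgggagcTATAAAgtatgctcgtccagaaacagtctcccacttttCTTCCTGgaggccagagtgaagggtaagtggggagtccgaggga

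Motifs were searched on both strands. TATAAA, the TATA box, began 32 bases before the start site. CAGGAAG, a core of sites for ETS factors, a family that endothelial genes use widely, was found in its complement CTTCCTG 218 bases before the start site and again 7 bases into the transcript. Across 32851 mouse promoter windows of the same length, 13.6% held TATAAA and 13.3% held CAGGAAG. The window held no match to TGACGTCA (the cAMP response element, in 1.79% of windows), TGANTCA (AP-1, 7.81%), the CArG box of serum response factor (1.63%), GCGTGGGCG (EGR factors, 0.612%) or GGGCGG (the GC box, 35.7%). By the same search, the window of the immediate-early gene *Fos* held only GGGCGG and TATAAA. Some other immediate-early windows did hold matches, TGACGTCA in *Btg2*, *Dusp1* and *Maff* and the CArG box in *Zfp36* and *Egr2*. The absence of these matches therefore does not set *Apold1* apart from immediate-early genes. The matches in the *Apold1* window do not overlap each other. Of the constitutive members, *Flt1* held a TGACGTCA 81 bases and a TATAAA 31 bases before its start site, *Egfl7* and *Emcn* also held CAGGAAG, and *Egfl7*, *Kdr* and *Flt1* held GGGCGG. The windows of *Pecam1*, *Cdh5* and *Vwf* were not analysed here.

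Several differences between the libraries bear on every comparison. Counts of *Xist*, an X-linked RNA of female cells, were 14543 in WH7 and 11339 in WH8, against 94 in WH9 and 132 in WH10. Those of the Y-linked gene *Ddx3y* were 13 and 7, against 1442 and 1768. The sex of the mice thus went with the group, and sex and transgene cannot be told apart. The Ctrl libraries also differed from each other in atrial RNA. The 6 atrial markers summed to 6020 CPM in WH7 but 743 in WH8, while WH9 had 2220 and WH10 had 2830. *Nppa*, which encodes the atrial natriuretic peptide, had 34013, 1943, 5217 and 12886 counts in WH7, WH8, WH9 and WH10. It was the most abundant of them in WH7 and WH10, while *Myl7* was in WH8 and WH9. Fold changes without each Ctrl library are given for *Kdr*, *Emcn* and *Vwf*, which moved most with them, and for *Apold1*. The 12 CM markers summed to 55472 and 59486 CPM in Ctrl and to 75279 and 73046 in *miR-128*OE hearts, so the libraries of the groups did not overlap in CM RNA. The part of these differences in the endothelial values was not tested.

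*Pecam1* and *Cdh5*, the members that encode junction proteins, were both higher in *miR-128*OE hearts. *Pecam1* (chr11:106654213-106715281) encodes PECAM1 or CD31, an adhesion molecule that platelets and leukocytes also carry, and had 262 and 253 CPM in Ctrl and 359 and 329 CPM in *miR-128*OE hearts. Its 2 *miR-128*OE libraries lay above both Ctrl libraries, with a log2 fold change of 0.42 (SE 0.08). *Cdh5* (chr8:104101613-104144504) encodes VE-cadherin, which builds adherens junctions in endothelial cells, and had 444 and 454 CPM in Ctrl against 576 and 508 CPM. The groups did not overlap here either, although WH10 was closer to the Ctrl libraries than WH9 was. The log2 fold change of *Cdh5* was 0.27 (SE 0.09), and it was 0.38 without WH10 and 0.19 without WH9. With libraries scaled by total counts alone it was 0.17. *Cdh5* is among the 4 members with a *miR-128* seed match.

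With TMM scaling and all 4 libraries, the receptor genes differed least between the groups among the 10 genes. *Tek* (chr4:94739086-94874976), which encodes the angiopoietin receptor TIE2, had 132 and 124 CPM in Ctrl and 116 and 117 CPM in *miR-128*OE hearts. *Tie1* (chr4:118471191-118489849), whose product is an orphan receptor that pairs with TIE2, had 275 and 258 CPM against 240 and 239 CPM. Both genes were lower in each *miR-128*OE library than in either Ctrl library, by a small margin, with log2 fold changes of −0.14 (SE 0.08) for *Tek* and −0.16 (SE 0.08) for *Tie1*. Without WH7 they were −0.089 and −0.11, and with total counts −0.24 and −0.26. *Tek* was at −0.063 with an offset for GC content and length. *Kdr* (chr5:75932827-75979072) encodes VEGFR2, the main signalling receptor for VEGF-A, and had 184 and 213 CPM in Ctrl and 214 and 200 CPM in *miR-128*OE hearts. The groups overlapped for *Kdr* alone among the 10 genes, and its log2 fold change of 0.06 (SE 0.09) turned to −0.04 with libraries scaled by total counts. It was −0.04 without WH7, 0.18 without WH8, 0.03 without WH9 and 0.13 without WH10. *Flt1* (chr5:147561604-147726438) encodes VEGFR1, which binds VEGF-A tightly and can act as a decoy, and had 82.7 and 86.3 CPM against 79.9 and 77.3 CPM. Both *miR-128*OE values were under both Ctrl values, with a log2 fold change of −0.10 (SE 0.08), or −0.063 without WH10. It was −0.0026 with an offset for GC content and length and −0.20 with total counts. The ratio of *Tie1* to *Tek*, per kb of the longest coding transcript, stayed within 2.24 to 2.29 over the 4 libraries. The ratio of *Kdr* to *Flt1* on the same scale was 2.58 and 2.88 in Ctrl hearts against 3.12 and 3.02 in *miR-128*OE hearts.

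*Emcn* and *Egfl7* were both lower in *miR-128*OE hearts. *Emcn* (chr3:137341062-137431069) encodes endomucin, a sialomucin of capillaries and veins, and had 105 and 91.0 CPM in Ctrl and 77.8 and 82.3 CPM in *miR-128*OE hearts. Its groups did not overlap, and the log2 fold change was −0.29 (SE 0.09), with −0.18 when WH7 was left out and −0.39 when WH8 was. *Emcn* had the most *miR-128* seed matches of the 10 genes, with 3. *Egfl7* (chr2:26581083-26592682), which encodes a secreted factor of endothelial cells and hosts the endothelial microRNA *miR-126* in an intron, had 390 and 406 CPM against 294 and 325 CPM. Its Ctrl libraries lay above both *miR-128*OE libraries, with a log2 fold change of −0.36 (SE 0.09). Of the 3581 exon bases of *Egfl7*, 264 are shared with *Gm20532*, 73 with *Mir126a*, 64 with *Agpat2* and 58 with *Mir126b*, *Agpat2* and *Mir126b* on the opposite strand, so its counts are uncertain where reads could be assigned to either gene. The *Mir126a* locus itself had 14, 4, 2 and 14 counts in WH7, WH8, WH9 and WH10.

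*Vwf* (chr6:125552948-125686679) encodes von Willebrand factor, the clotting protein that endothelial cells store in Weibel-Palade bodies and that megakaryocytes also make. It had 59.3 and 52.5 CPM in Ctrl and 32.8 and 50.4 CPM in *miR-128*OE hearts. WH9 was far below the others, while WH10 was just below WH8. The log2 fold change of *Vwf* was −0.42 with the largest error of the 10 genes (SE 0.17), and it was −0.14 without WH9 and −0.76 without WH10. Without WH7 it was −0.32, and without WH8 it was −0.50.

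*Apold1* (chr6:134982001-134986836), which overlaps no other annotated gene, had 33.2 and 32.5 CPM in Ctrl and 116 and 116 CPM in *miR-128*OE hearts. The counts behind them were 427 and 271 for WH7 and WH8, and 1375 and 1617 for WH9 and WH10. The replicates were close to each other and the groups were far apart, at means of 32.9 ± 0.448 (SD, n = 2) and 116 ± 0.0806 CPM, a 3.52-fold difference. Both SDs are smaller than the counting error at these counts. They therefore do not measure the spread between hearts. The log2 fold change was 1.81 (SE 0.08). It was 1.83 without WH7 and 1.80 without WH8, and it lay between 1.71 and 1.86 over the 13 settings of scaling, filter, test and left-out library that were run. *Apold1* also holds a 7mer-m8 seed match to *miR-128*, the microRNA of the transgene. The level of the mature microRNA in these libraries is not given by the counts, and whether the match acts was not tested.

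**Figure D1:**
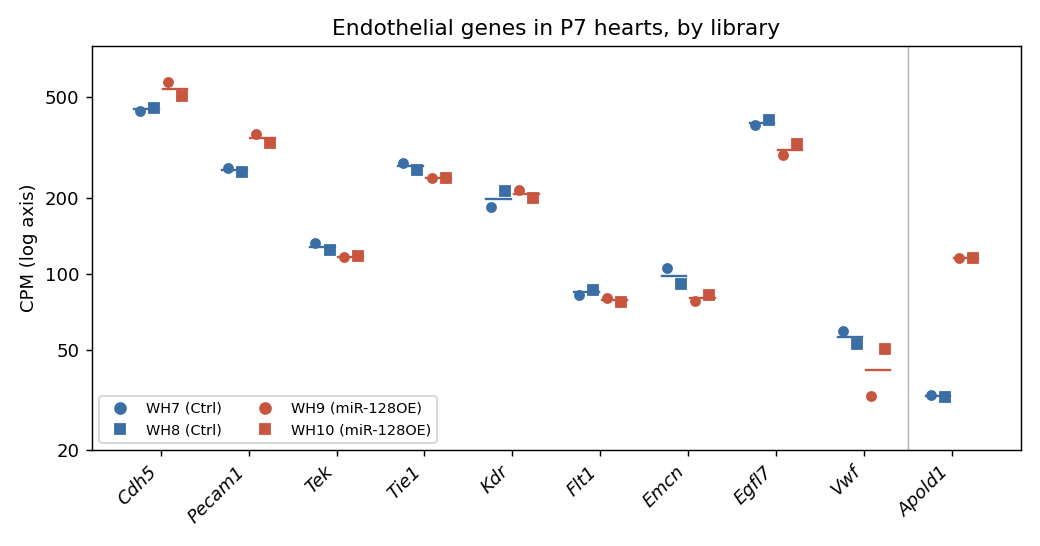
CPM of the 10 genes (log axis) in each library, with circles and squares for the 2 libraries of a group and horizontal lines for the group means. *Apold1* lies at 32.5 and 33.2 CPM in both Ctrl libraries and at 116 CPM in both *miR-128*OE libraries, while each constitutive gene stays within a fold of 0.744 to 1.33.

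*Apold1* was then set against the constitutive genes, a contrast for which these genes were chosen and which is given as a description. Its log2 CPM minus the mean log2 CPM of the 9 constitutive genes was −2.40 in both Ctrl libraries, and −0.48 and −0.53 in WH9 and WH10, a difference of 1.89, or 3.71-fold. As a percentage of the summed CPM of the 9 genes, *Apold1* amounted to 1.72% and 1.68% in Ctrl and to 5.81% and 5.99% in *miR-128*OE hearts. The sum itself was 1934 and 1938 CPM in Ctrl and 1991 and 1928 CPM in *miR-128*OE hearts, where the groups overlapped. The constitutive genes had a median log2 fold change of −0.14, between −0.42 and 0.42, beside −0.01 over all tested genes. Of the 9, 2 were above both Ctrl libraries in both *miR-128*OE libraries, 6 were below and 1 overlapped. Over all tested genes, 33.7% were above and 34.4% below in this sense.

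In the fit over all 14266 genes by edgeR's quasi-likelihood test, 31.5% of genes passed a Benjamini-Hochberg adjusted p of 0.05, with 16.5% higher and 15% lower in *miR-128*OE hearts. Of the 10 members, 5 were past this threshold, namely *Apold1*, *Pecam1* and *Cdh5* on the higher side and *Egfl7* and *Emcn* on the lower side. Without WH9 *Apold1* alone was past it, and without WH10 *Cdh5*, *Egfl7* and *Emcn* were not. *Cdh5* was not past it either with the likelihood ratio test, upper-quartile factors or total counts, nor *Emcn* with DESeq2, the GC and length offset or WH7 left out. Members outside the 5 also came past it, *Vwf* without WH8, without WH10 or with no filter on low counts, and *Tek* and *Tie1* with total counts. Because the genes were chosen with this contrast in view, nothing is read from these counts. The number of genes past the threshold was 4490, of which 2347 were higher and 2143 lower, and it dropped to 1564 without WH9 and to 2285 without WH10. With total counts as the scale, the median over all genes moved to −0.11 on the log2 scale, with 1611 higher and 2948 lower genes.

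Levels can be compared between genes only per length of transcript. Per kb of the longest coding transcript, the Ctrl level was 286 ± 8.31 CPM per kb (SD, n = 2) for *Egfl7*, 112 ± 1.77 for *Cdh5*, 74.9 ± 2.01 for *Pecam1* and 63.0 ± 2.86 CPM per kb for *Tie1*. These 4 genes were separated from each other by more than their spread on this scale. *Emcn* with 37.9 ± 3.81 CPM per kb and *Kdr* with 33.5 ± 3.57 followed and did not differ beyond their spread, and *Tek* stood at 27.5 ± 1.20 CPM per kb. *Flt1* with 12.3 ± 0.368, *Apold1* with 9.21 ± 0.126 and *Vwf* with 6.33 ± 0.551 CPM per kb were the lowest. *Apold1* ranked 9 of 10 in Ctrl hearts and 6 of 10 in *miR-128*OE hearts, at 32.4 ± 0.0226 CPM per kb, next to *Kdr* with 35.0 ± 1.64 and *Emcn* with 30.9 ± 1.23. The SDs of *Apold1* on this scale are again smaller than its counting error. The order depends on the transcript chosen. Per kb of all annotated exons, the level of *Egfl7* in Ctrl was 111 CPM per kb and that of *Cdh5* 107. On that scale *Tie1* (54.3) stood above *Pecam1* (41.4), *Tek* (27.2) above *Kdr* and *Emcn* (18.1), and *Apold1* above *Flt1*.

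Most of the listed immediate-early genes other than *Apold1* were higher in *miR-128*OE hearts. This list and those that follow were drawn up with earlier results of these data known. Their shares are therefore given as a description and not as independent support. Of 27 tested, 20 (74.1%) rose, 0 fell and 7 did not pass an adjusted p of 0.05 (edgeR's quasi-likelihood test, Benjamini-Hochberg), with a median log2 fold change of 1.08 beside −0.01 over all tested genes, of which 16.5% rose. DESeq2 called 19 of them, and the number stayed between 17 and 21 over all settings, scalings and left-out libraries included. In 24 of the 27 genes both *miR-128*OE libraries lay above both Ctrl libraries, beside 33.7% of all tested genes, and in 3 the groups overlapped. Their summed CPM was 1117 and 1009 in Ctrl hearts against 2682 and 2725 in *miR-128*OE hearts.

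*Nr4a1*, which encodes an orphan nuclear receptor, had 248 and 163 counts in WH7 and WH8 and 1527 and 1914 in WH9 and WH10, with a log2 fold change of 2.77 (SE 0.09, adjusted p = 4.04e-07, edgeR's quasi-likelihood test). *Dusp1*, a phosphatase gene that limits MAP kinase signalling, had 49.9 and 46.0 against 259 and 257 CPM, with a log2 fold change of 2.42 (SE 0.08, adjusted p = 4.85e-07). *Ccn1*, which encodes a matricellular protein, had 38.3 and 30.3 against 292 and 308 CPM, with a log2 fold change of 3.12 (SE 0.11, adjusted p = 5.75e-07). In these 3 genes the groups were separated by several times the distance between replicates. Averaged over the libraries, *Jund*, an AP-1 subunit, was the most abundant of the list, although *Ccn1* was higher in WH9 and WH10. *Jund* had 158 and 123 against 265 and 254 CPM and a log2 fold change of 0.88 (SE 0.11). *Fos* and *Klf2* were looked up after their values were seen. *Fos*, an AP-1 subunit, had 5.90 and 5.64 CPM in Ctrl and 50.9 and 50.4 CPM in *miR-128*OE hearts. *Klf2*, a transcription factor that blood flow induces in endothelial cells, had 93.6 and 77.7 against 221 and 231 CPM, with a log2 fold change of 1.40 (SE 0.10). *Myc*, *Socs3* and *Klf6*, also looked up afterwards, were the 3 genes with overlapping groups, with log2 fold changes of 0.00, −0.02 and 0.06. These genes are expressed by many cell types, and the cells that held their RNA in these hearts cannot be told apart.

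Of the 36 other endothelial genes, 12 (33.3%) rose and 4 (11.1%) fell by the same test, beside 16.5% and 15% of all tested genes, and 20 did not pass it. Their median log2 fold change was 0.07. DESeq2 called 13 of the 36. With libraries scaled by total counts, 7 were higher and 7 lower, at a median of −0.03, and with upper-quartile factors 8 were higher and 5 lower. Over all tested genes, total counts gave 1611 higher and 2948 lower, and upper-quartile factors 1980 higher and 2499 lower. These scalings move all genes together, so nothing is read about the list from the changed split. Without WH8, 9 were higher and 7 lower. The number past the threshold was 5 without WH9 and 9 without WH10. Their summed CPM was 5759 and 5703 in Ctrl hearts against 6127 and 5966 in *miR-128*OE hearts.

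*Thbd*, which encodes the anticoagulant receptor thrombomodulin, rose from 52.8 and 46.2 CPM in Ctrl to 91.7 and 87.4 CPM, with a log2 fold change of 0.85 (SE 0.09, adjusted p = 0.000284, edgeR's quasi-likelihood test). *S1pr1*, a receptor gene for sphingosine 1-phosphate that supports vascular integrity, rose from 97.7 and 98.4 to 153 and 138 CPM, a log2 fold change of 0.57 (SE 0.08). *Sox7*, an endothelial transcription factor gene, rose from 66.3 and 56.5 to 94.9 and 89.4 CPM, a log2 fold change of 0.58 (SE 0.10). The groups did not overlap in any of these 3. On the other side, *Ushbp1* fell from 252 and 285 to 173 and 183 CPM, a log2 fold change of −0.59 (SE 0.09, adjusted p = 0.00126, edgeR's quasi-likelihood test). *Bcl6b*, a gene for a transcriptional repressor, fell from 148 and 184 to 110 and 113 CPM, a log2 fold change of −0.57 (SE 0.11). *Mmrn2*, whose product is an endothelial matrix glycoprotein, had a log2 fold change of −0.46 (SE 0.10). The fourth gene that fell was *Lyl1*, a transcription factor gene named after its value was seen, with a log2 fold change of −0.70. *Fabp4*, a fatty acid binding protein gene of capillary endothelium and the most abundant of the list, had 1539 and 1610 CPM in Ctrl and 1613 and 1497 CPM in *miR-128*OE hearts, where the groups overlapped.

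**Figure D2:**
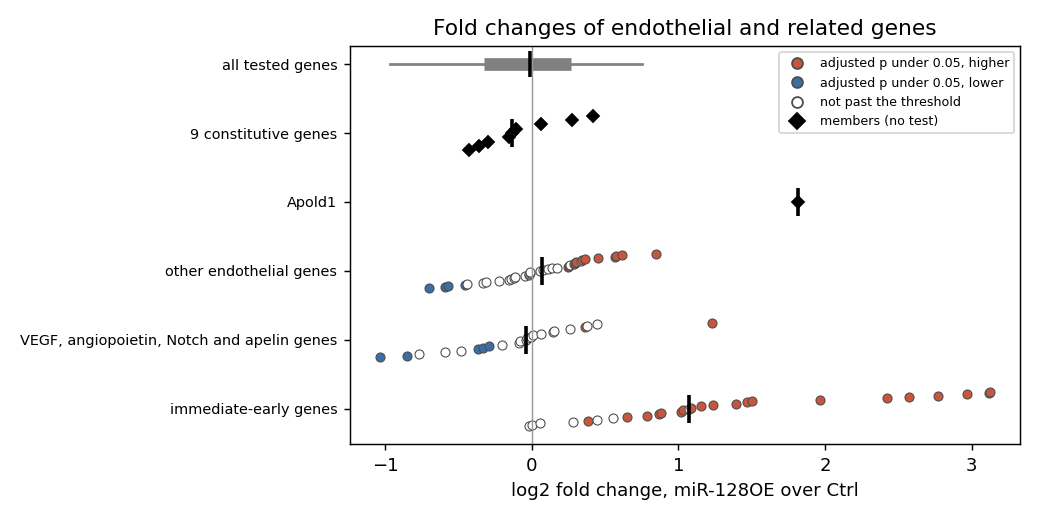
Log2 fold change of *miR-128*OE over Ctrl for the 9 constitutive genes and *Apold1* (diamonds) and for 3 related lists (circles, filled where the adjusted p was under 0.05), with a vertical tick at each median and, for all tested genes, a box over the middle of the distribution and a line over its inner 90%. The constitutive genes lie between −0.42 and 0.42, and *Apold1* at 1.81 lies within the range of the immediate-early genes.

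The VEGF, angiopoietin, Notch and apelin genes passed the test about as often as all genes. Over the list of 23 ligands, receptors, co-receptors and targets of the VEGF, angiopoietin, Notch and apelin pathways, other than the members, 2 genes rose and 5 fell, which is 30.4% beside 31.5% of all tested genes, with a median log2 fold change of −0.04. DESeq2 called 4, and the number was 3 without WH9 and 4 without WH10. Scaling by total counts gave 1 higher and 6 lower genes, upper-quartile factors 1 higher and 5 lower, and an offset for GC content and length 3 higher and 4 lower.

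Among the VEGF ligands, *Vegfa*, the principal growth factor of vessels, had 349 and 470 CPM in Ctrl and 387 and 427 CPM in *miR-128*OE hearts. Its groups overlapped, with a log2 fold change of −0.01 (SE 0.13, adjusted p = 0.971, edgeR's quasi-likelihood test). None of the other 4 ligands passed the threshold. Their log2 fold changes were 0.15 (SE 0.08) for *Vegfb*, −0.20 (SE 0.12) for *Vegfc*, −0.59 (SE 0.22) for *Vegfd* and 0.37 (SE 0.21) for *Pgf*. *Vegfd* and *Pgf* were at 12.1 CPM or less in each library, and their errors were the widest among these ligands.

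*Nrp1*, which encodes neuropilin 1, a co-receptor for VEGF-A and semaphorins, was the receptor gene with the largest difference. It fell from 548 and 503 CPM in Ctrl to 264 and 250 CPM in *miR-128*OE hearts, a log2 fold change of −1.03 (SE 0.09, adjusted p = 7.58e-05, edgeR's quasi-likelihood test). Both *miR-128*OE libraries lay far below both Ctrl libraries, at 0.490-fold of the Ctrl mean. *Nrp2*, its paralogue, had 80.9 and 85.7 against 84.3 and 78.1 CPM, and *Flt4*, which encodes the VEGF-C receptor VEGFR3, had 31.1 and 31.9 against 30.8 and 28.6 CPM. Neither passed the threshold, with log2 fold changes of −0.04 (SE 0.09) and −0.09 (SE 0.11). *Nrp1* is also expressed outside the endothelium, and its cells cannot be told apart here.

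The ligands of TIE2 were variable. *Angpt1*, the agonist, had 367 counts in WH7 and 94 in WH8, and 107 and 209 in WH9 and WH10. WH7, the library with the most atrial RNA, was the high library and the groups overlapped, with a log2 fold change of −0.77 (SE 0.36, adjusted p = 0.138, edgeR's quasi-likelihood test). *Angpt2*, the context-dependent antagonist, had 12.5 and 7.92 CPM in Ctrl and 7.91 and 7.00 CPM in *miR-128*OE hearts, a log2 fold change of −0.48 (SE 0.24) that did not pass the test. The part of atrial tissue in these values was not tested.

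Genes of the Notch and apelin pathways went in both directions. *Apln*, the ligand of the apelin receptor and a gene of sprouting tip cells, rose from 46.5 and 40.9 CPM in Ctrl to 109 and 96.9 CPM in *miR-128*OE hearts, a log2 fold change of 1.23 (SE 0.10, adjusted p = 6.91e-05, edgeR's quasi-likelihood test). Its receptor gene *Aplnr* had 235 and 230 against 251 and 219 CPM, with a log2 fold change of 0.01 (SE 0.09). *Hey2*, a Notch target and transcriptional repressor gene, fell from 23.1 and 21.5 to 12.6 and 12.1 CPM, a log2 fold change of −0.85 (SE 0.13, adjusted p = 0.00167, edgeR's quasi-likelihood test). *Hey1*, another target of the same family, rose, with a log2 fold change of 0.37 (SE 0.12). The receptor gene *Notch4* and the ligand gene *Dll4*, both endothelial, fell, with log2 fold changes of −0.33 (SE 0.09) and −0.36 (SE 0.12). *Rbpj*, the DNA-binding partner of the Notch receptors, was named after its value was seen and had a log2 fold change of −0.29.

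**Figure D3:**
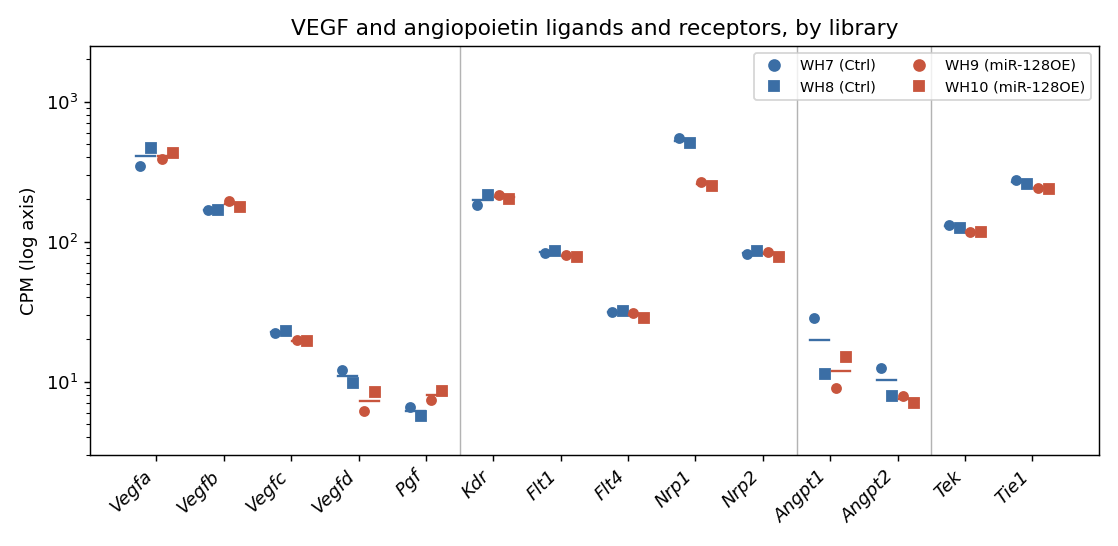
CPM (log axis) of the VEGF ligands, VEGF receptors and co-receptors, angiopoietins and TIE receptors in each library, in that order between the vertical lines, with horizontal lines for the group means. *Nrp1* is the gene whose groups are farthest apart, at 548 and 503 CPM in Ctrl and 264 and 250 CPM in *miR-128*OE hearts, and WH7 is high for *Angpt1*.

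Markers of endothelial subtypes were then counted with the same fit, and their counts of few genes stand beside the 31.5% of all tested genes that passed it. Some of these genes also belong to the lists above or to more than 1 subtype list, so the lists are not independent. Of 10 capillary genes, 3 (30.0%) passed, of which *Tcf15* rose (log2 fold change 0.44, SE 0.10) and *Car4* (−0.59, SE 0.12) and *Timp4* (−1.19, SE 0.29) fell. Of 10 arterial genes, 4 passed (2 in DESeq2), of which *Efnb2* (0.37, SE 0.09) and *Hey1* rose and *Dll4* and *Bmx* (−0.76, SE 0.20) fell. *Unc5b*, the most abundant, had a log2 fold change of −0.13 (SE 0.11). None of 6 venous genes passed the threshold in edgeR or DESeq2, with 1 at an unadjusted p under 0.05 in edgeR. Summed CPM stayed between 480 and 541 for the arterial and between 508 and 571 for the venous genes, and the groups overlapped in both.

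Of 8 tip cell genes, 4 passed (3 in DESeq2), of which *Apln*, *Nid2* (0.63, SE 0.09) and *Cd34* (0.37, SE 0.09) rose and *Dll4* fell. *Apln*, *Cd34* and *Dll4* were already counted in lists above. The 4 that did not pass went in both directions. They were *Kcne3* (0.57, SE 0.41), *Pgf* (0.37, SE 0.21), *Esm1* (−0.39, SE 0.35) and *Angpt2* (−0.48, SE 0.24), named to complete the list. *Cd34*, a sialomucin gene and the most abundant of these, had 417 and 378 CPM in Ctrl and 532 and 494 CPM in *miR-128*OE hearts. Of 7 endocardial genes, 2 (28.6%) passed in edgeR and as many in DESeq2. *Nfatc1*, a transcription factor gene of valve-forming endocardium, rose (0.62, SE 0.12) and *Cgnl1*, the most abundant, fell (−0.54, SE 0.11). The summed endocardial CPM was 348 in WH7 and 237, 222 and 237 in the other libraries, and WH7 was again the high library. Of 6 tested lymphatic genes, *Mmrn1* alone passed and fell (−0.83, SE 0.26), and 0 passed in DESeq2. *Ccl21a*, a defining lymphatic gene, was at 0 in all 4 libraries. It has near-identical copies, and how reads that fit several genes were counted is not given in the sources used here, so this 0 does not show that its RNA was absent.

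Genes of activated endothelium, such as adhesion molecules and chemokines that inflammatory cytokines induce, had a median log2 fold change of 0.32. None of the 11 tested passed the threshold in edgeR or DESeq2, beside 31.5% of all tested genes in edgeR. Both *miR-128*OE libraries lay above both Ctrl libraries in 6 of them and below in 1, and 4 overlapped. Over all tested genes, 33.7% were above and 34.4% below. Several had few counts, and a difference in those could go uncalled. *Sele*, *Selp* and *Ackr1*, named after their values were seen, had 27 counts or fewer in each library. In edgeR's quasi-likelihood test 3 had an unadjusted p under 0.05, and *Csf3* was too low to be tested. *Vcam1*, the most abundant of them on average, had 34.0 and 29.2 CPM in Ctrl and 30.8 and 26.1 CPM in *miR-128*OE hearts, where the groups overlapped.

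Other cells of the heart were followed by their own markers, beside the 16.5% of all tested genes that rose and the 15% that fell. Of 12 CM genes, 7 rose and 2 fell, including *Actc1* (log2 fold change 1.34, SE 0.09), *Nkx2-5* (1.05, SE 0.09) and *Actn2* (0.76, SE 0.10) among those that rose, and *Ryr2* (−0.40, SE 0.08) and *Ttn* (−0.34, SE 0.09). *Myh6*, which encodes α-MHC and is the most abundant, rose from 14863 and 14245 to 18382 and 18234 CPM. Of 10 smooth muscle and pericyte genes, *Acta2* (0.94, SE 0.10), *Abcc9* (0.43, SE 0.11) and *Rgs5* (0.29, SE 0.08) rose and *Myh11* fell (−0.64, SE 0.20). Of 11 fibroblast genes, 4 passed (2 in DESeq2), of which *Thy1* (0.87, SE 0.11), *Gsn* (0.50, SE 0.13) and *Lum* (0.63, SE 0.19) rose and *Ddr2* fell (−0.27, SE 0.09). *Col3a1*, the most abundant fibroblast gene, had 2088 CPM in WH8 against 3238, 3244 and 3303 CPM in WH7, WH9 and WH10, and the summed fibroblast CPM was 6777 in WH8 and between 9262 and 10352 in the other libraries.

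Platelets and leukocytes can share *Pecam1*, and platelets *Vwf*, with the endothelium. The 7 platelet genes, led on average by *Pf4*, summed to 28.6 and 33.6 CPM in Ctrl and 27.2 and 29.0 CPM in *miR-128*OE hearts. The 11 macrophage genes, led on average by *Csf1r*, summed to 157 and 121 against 126 and 127 CPM. None of the 6 tested platelet and 11 macrophage genes passed the threshold in edgeR or DESeq2, with 0 and 2 at an unadjusted p under 0.05 in edgeR. For the 6 atrial genes no gene passed either test and 0 had an unadjusted p under 0.05 in edgeR. For the 5 mesothelial genes, led on average by *Msln*, no gene passed either test and 2 had an unadjusted p under 0.05 in edgeR. The mesothelial sum was 116 CPM in WH7 and between 53.8 and 65.5 CPM in the other libraries. Of the erythroid genes, *Alas2*, which encodes the first enzyme of heme synthesis in red cells, rose (1.05, SE 0.15), while the globin genes *Hba-a1*, *Hba-a2*, *Hbb-bs* and *Hbb-bt* had 0 counts in every library and were not tested. The globin genes also have near-identical copies, and the same limit holds for them. The part of these cells in the endothelial values was not tested.

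**Figure D4:**
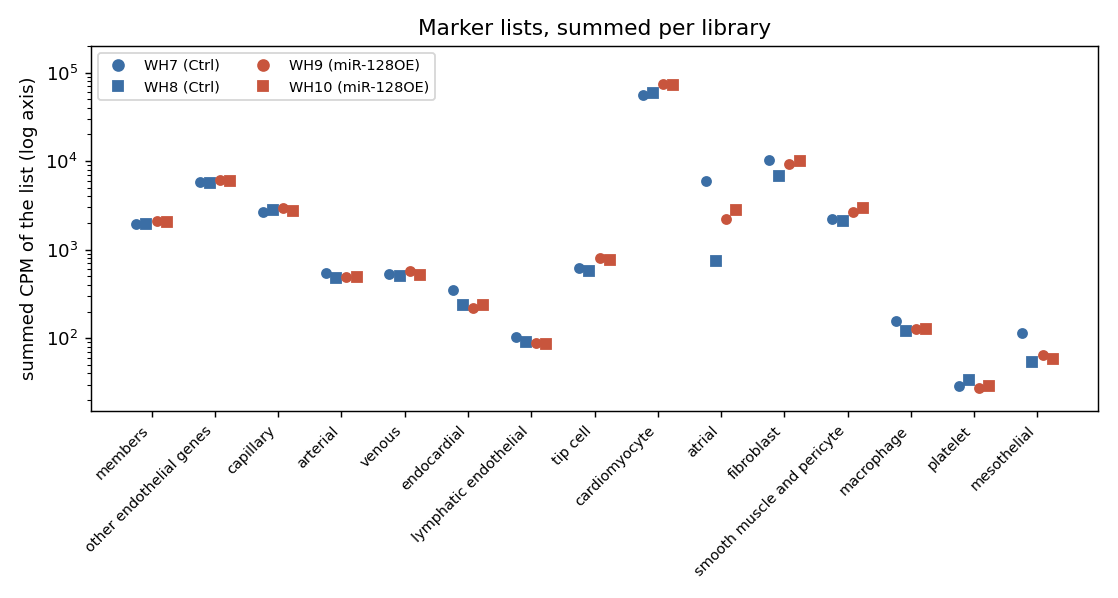
Summed CPM (log axis) of each marker list in each library. The sums of the 36 other endothelial genes lie between 5703 and 6127 in all 4 libraries, the CM sums are 55472 and 59486 in Ctrl hearts against 75279 and 73046 in *miR-128*OE hearts, and the atrial sums spread from 743 in WH8 to 6020 in WH7.

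The genes whose pattern was most like that of *Apold1* were sought among 10442 genes whose average log2 CPM reached 3, by the Euclidean distance between log2 CPM values centred over the 4 libraries. With 4 libraries and 2 groups this likeness is dominated by the difference between the groups. The nearest were *Lrtm1* (distance 0.042), *Slc25a33* (0.055), *Hddc3* (0.060), *Rfx2* (0.13) and *Depp1* (0.14), with log2 fold changes between 1.79 and 1.95. *Lrtm1* had 427, 280, 1373 and 1613 counts in WH7, WH8, WH9 and WH10, close to the 427, 271, 1375 and 1617 counts of *Apold1*. For the mean of the 9 constitutive genes, the nearest were *Mbtps1* (distance 0.0080), *Rasal2* (0.015), *Uck1* (0.019), *Pf4* (0.021) and *Tmem131* (0.022), each with a log2 fold change of −0.09.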

How the data were processed

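RNA-seq counts of 4 P7 heart libraries were used. The deposited values are raw counts per Entrez gene, which the authors made with TopHat2 (build mm10) and Bioconductor tools after a quality filter. Gene models, strand and the treatment of shared reads are not given in the sources used here. Symbols were matched for 24381 of 24454 identifiers (GENCODE M21 and RefSeq, GRCm38). edgeR 4.0.16 in R 4.3.3 was run with filterByExpr (minimum count 10, minimum total 15), TMM scaling and quasi-likelihood tests, with Benjamini-Hochberg adjustment over 14266 genes at 0.05. Standard errors were obtained by dividing each log2 fold change by the root of its F statistic. The biological coefficient of variation was 8.78%. Log2 CPM used a prior count of 2. The code was tested on simulated data. Python 3.11.15 was used for sites and summaries.

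The members and all lists were chosen with earlier results of these data known. Named genes are the 10 members, every VEGF and angiopoietin ligand and receptor, and, in each other list, the most abundant gene and up to 3 genes per direction with the smallest p-value past the threshold and no overlap between groups, with the 5 nearest genes for likeness. Abundance within a list is the average over the 4 libraries. Other genes are said to be named after their values were seen. Alternatives were the likelihood ratio test, DESeq2 1.42.0, other scalings and filters and fits without each library. A loess correction for GC and length (an offset with span 0.5 over 14165 genes) was added after the data were seen. Samples at P1 and P28 were not analysed here.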

Additional observations from a re-analysis of the deposited data

How the results depend on the processing

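With WH9 or WH10 left out, or a Ctrl library, the genes past the threshold numbered 1564 to 5038, the other endothelial genes 5 to 17 and the VEGF, angiopoietin, Notch and apelin genes 3 to 9. The median of the 10 members then ranged from −0.12 to −0.093 and the log2 difference of *Apold1* from the constitutive genes from 1.87 to 1.91. The lone library of a group is assumed to vary like the others. The median of the members was −0.12, and it was −0.17 with upper-quartile factors, −0.22 with total counts and −0.033 with the GC and length offset, and the cause was not tested. DESeq2 called 4 VEGF, angiopoietin, Notch and apelin genes. With summed counts in place of the mean of logs, the difference of *Apold1* was 1.80. Without a filter 5323 genes passed, and with DESeq2 3114. No paired analysis was possible because the labels give no replicate numbers. No detection limit was measured for 2 libraries per group.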
